A study of Mus musculus with 16 samples.

Results

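Airway secretory and mucosal defence genes, here 10 genes whose products are made by the epithelium of the conducting airways, were followed through whole lung RNA of mice with and without the IL-31 receptor. They were chosen by symbol as Scgb1a1, Scgb3a1, Scgb3a2, Muc5b, Bpifa1, Bpifb1, Pigr, Ltf, Reg3g and Cyp2f2, and all 10 are among the 16380 genes with a value. The lungs came from IL-31RA knockout mice given bleomycin (KO-Bleo) or saline (KO-Sal) and from littermate wildtype mice given bleomycin (WT-Bleo) or saline (WT-Sal), with 4 libraries per group and 16 in all. All mice were on a C57BL/6 background, of either sex and 10 to 18 weeks old, and bleomycin, which cuts DNA strands and scars the lung, or saline was given by skin injection (6 U/kg of bleomycin, 5 days a week over 4 weeks) until lungs were taken on day 28. The knockout allele lacks exons 4 to 6 of Il31ra, so reads from its other exons still count toward the gene. Libraries are named by group and replicate number (KO-Bleo 13 to 16, KO-Sal 9 to 12, WT-Bleo 5 to 8, WT-Sal 1 to 4). No source used here says if the 16 libraries are 16 mice, so the tests measure the spread between these libraries. Sex by library and sequencing batch are also not given, and a batch that followed the genotype cannot be told apart from it.

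Values are RPKM, which corrects reads for the length of a gene and the depth of its library, so levels can be compared between genes. The test was limma on log2(RPKM + 1) over all 16380 genes. A gene was called when its p adjusted over all of them was under 0.05, and each log2 fold change is of RPKM + 1, positive when the group named first was higher. Total reads ranged from 604136 in WT-Bleo 6 and 1234598 in KO-Bleo 15 to 32153864, and the other 14 libraries had 7790591 or more. Il31ra itself (chromosome 13, 112521931 to 112580732) had 2 to 9 reads per library in KO-Bleo, 2 to 3 in KO-Sal, 0 to 13 in WT-Bleo and 5 to 17 in WT-Sal, too few to check a genotype label. Each of the 10 genes had at least 60 reads in each library. The table gives knockout values to a median of 10 significant digits and wildtype values to 15, so the columns of the genotypes were written out differently.

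The surface of the conducting airways is defended by secreted proteins and by mucus that cilia move upward. In the mouse, club cells line much of this surface and make secretoglobins, small proteins that are among the most abundant of airway lining fluid, together with cytochrome P450 enzymes that oxidise inhaled compounds. Secretory cells and glands of the airways also make gel-forming mucins, BPI-fold proteins that bind lipids and bacterial products, and antimicrobial proteins. The polymeric immunoglobulin receptor carries IgA across the epithelium into the lumen. In whole lung RNA, fewer cells of a type and less RNA per cell cannot be told apart.

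With bleomycin the 10 genes went separate ways. The antimicrobial genes Reg3g and Ltf and the BPI-fold gene Bpifb1 rose in both genotypes, and the club cell oxidase Cyp2f2 fell in both. Pigr rose in both genotypes too and its level in KO-Bleo exceeded that in WT-Bleo, the 1 gene of the 10 called between the genotypes. Bpifa1 fell with bleomycin in knockout lungs, and in wildtype lungs its difference was not called. Of the 10 genes, 8 were called in KO-Bleo against KO-Sal (4 higher and 4 lower), where 23.6% of all genes were called, 13.2% higher and 10.4% lower. In WT-Bleo against WT-Sal 5 were called (4 higher and 1 lower), where 30.9% of all genes were called, 18.6% higher and 12.3% lower. The median log2 fold change of the 10 genes was 0.41 in knockout and 0.53 in wildtype lungs, beside medians of all genes of -0.01 in knockout and 0.01 in wildtype lungs.

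**Figure D1:**
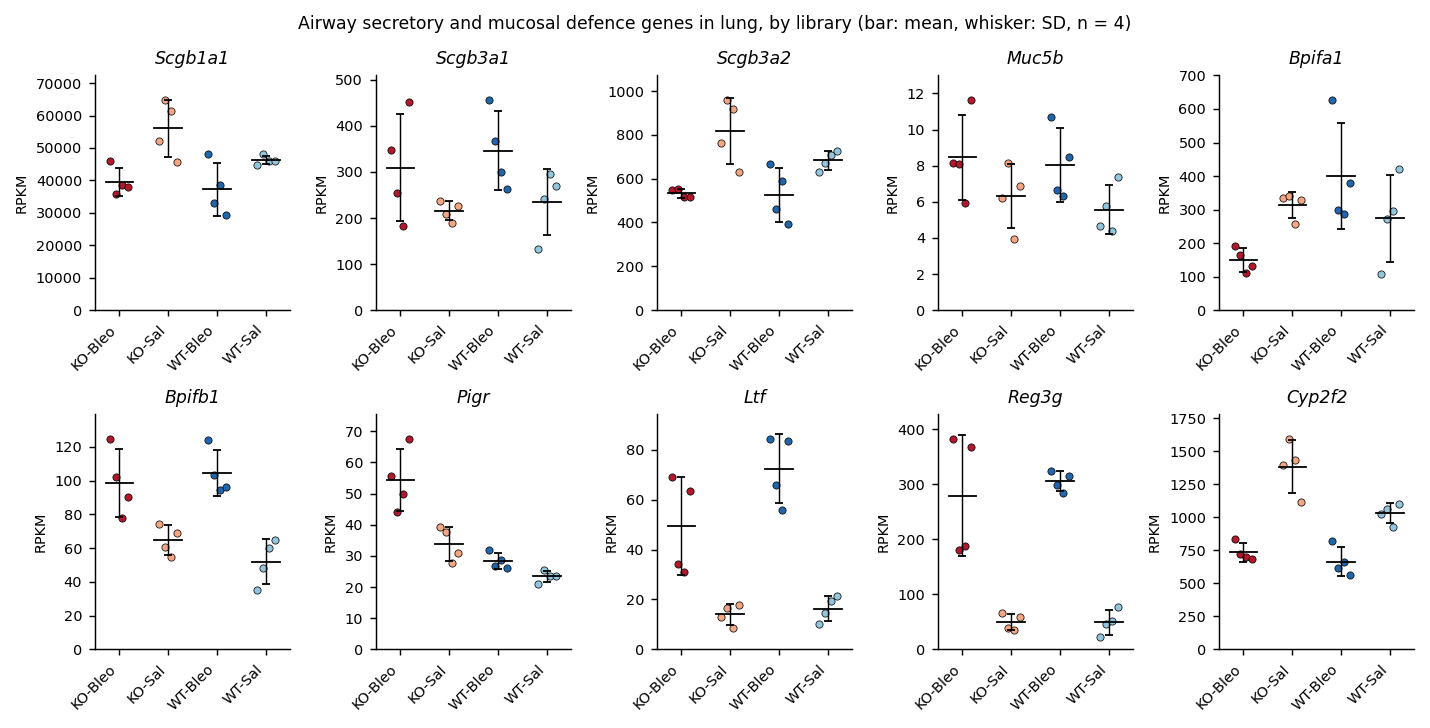
Level of each of the 10 genes in RPKM (linear axis from 0) in the 4 libraries of each group, with the mean as a bar and the SD as a whisker. Reg3g and Ltf stand higher in both bleomycin groups than in both saline groups, Pigr is highest in KO-Bleo at 44.2 to 67.5 RPKM, and Bpifa1 in KO-Bleo lies at 111 to 191 RPKM, below the other groups except WT-Sal 1.

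Scgb1a1 (gene ID 22287, chromosome 19, 9083642 to 9087956 of GRCm38.p6) encodes the main club cell secretory protein, and it had the highest RPKM of all genes in each of the 16 libraries. Scgb1a1 was at 45864, 35894, 38619.9 and 37909 RPKM in the KO-Bleo libraries, against 52163, 64862, 61472 and 45628 RPKM in the KO-Sal libraries. The wildtype levels were 48175, 32907.5, 38499.5 and 29342.5 RPKM in the WT-Bleo libraries, against 44899, 48014, 46013 and 46081 RPKM in the WT-Sal libraries. The bleomycin and saline groups overlapped in both genotypes, through KO-Bleo 13 and KO-Sal 12 and through WT-Bleo 5. Scgb1a1 fell in knockout lungs (mean 39572 ± 4351 RPKM in KO-Bleo and 56031 ± 8771 RPKM in KO-Sal, SD, n = 4 each; log2 fold change -0.49, SE 0.13, adjusted p = 0.0225). The call ended without KO-Sal 10, KO-Bleo 14, KO-Bleo 15 or KO-Bleo 16, at adjusted p between 0.0576 and 0.0655. In wildtype lungs the difference was not called (log2 fold change -0.34, SE 0.13, adjusted p = 0.0869). It was called without WT-Bleo 5, the highest library of that group (log2 fold change -0.47, adjusted p = 0.00737), and after a rescaling without the 10 most abundant genes (log2 fold change -0.42, adjusted p = 0.0274).

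Scgb1a1 took 1.68 to 2.15% of the reads of a library in KO-Bleo, against 2.14 to 3.04% in KO-Sal, and 1.37 to 2.26% in WT-Bleo, against 2.10 to 2.25% in WT-Sal. Its part of the summed RPKM, in which reads are divided by gene length, was larger. It took 9.01 to 10.9% of this sum in KO-Bleo, against 11.6 to 15.3% in KO-Sal. In wildtype lungs it took 7.38 to 11.4% in WT-Bleo, against 11.1 to 12% in WT-Sal. When each library was rescaled to a common sum of RPKM without the 10 most abundant genes, 8 of the 10 genes were called in knockout lungs (4 higher and 4 lower) and 6 in wildtype lungs (3 higher and 3 lower, in place of 4 higher and 1 lower). Over all genes, the share of calls that were higher was 56.1% in knockout and 60.1% in wildtype lungs, and after this rescaling 43.3% in knockout and 44.2% in wildtype lungs.

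The second secretoglobin, Scgb3a2 (gene ID 117158, chromosome 18, 43764301 to 43767399), is also a club cell product, and of 13318 genes whose mean log2(RPKM + 1) reached 1 it had the pattern most like that of Scgb1a1. The likeness was taken as the root mean square difference of the centred log2 values over the 16 libraries, which was 0.0990 for this pair, while the centred values of Scgb1a1 itself had a root mean square of 0.293. Scgb3a2 was at 547, 552, 517 and 516 RPKM in the KO-Bleo libraries, against 761, 960.1, 917 and 632 RPKM in the KO-Sal libraries. The gene in wildtype lungs was at 665, 461, 591 and 391 RPKM in the WT-Bleo libraries, against 629.65, 673, 707 and 724 RPKM in the WT-Sal libraries. In knockout lungs the groups did not overlap and the 4 KO-Bleo libraries lay close together (log2 fold change -0.60, SE 0.12, adjusted p = 0.00607). In wildtype lungs WT-Bleo 5 reached into the WT-Sal range and the difference was not called (log2 fold change -0.40, SE 0.15, adjusted p = 0.0652). It was called without WT-Bleo 5 (log2 fold change -0.52, adjusted p = 0.0171). It was also called with at least 10 reads required in every library, with a spread shared by all groups and under both other scalings, at adjusted p between 0.0232 and 0.0408.

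Scgb3a1 (gene ID 68662, chromosome 11, 49663595 to 49665118) encodes a secretoglobin that did not follow the other 2. Scgb3a1 was at 347, 254, 184 and 452 RPKM in the KO-Bleo libraries, against 238, 209, 190.1 and 225 RPKM in the KO-Sal libraries. Its wildtype values were 457, 367, 299 and 263 RPKM in the WT-Bleo libraries, against 132, 241, 296 and 269.8 RPKM in the WT-Sal libraries. The KO-Bleo libraries lay on both sides of the KO-Sal range, the WT-Bleo and WT-Sal ranges overlapped, and KO-Bleo 15, a shallow library with 139 reads of the gene, was the lowest of the KO-Bleo libraries. The log2 fold change was 0.44 in knockout lungs (adjusted p = 0.191) and 0.59 in wildtype lungs (adjusted p = 0.105), neither called. Without KO-Bleo 15 the difference in knockout lungs was called (log2 fold change 0.67, adjusted p = 0.0206). The ratio of Scgb3a1 to Scgb3a2 RPKM was 0.355 to 0.875 in KO-Bleo, against 0.207 to 0.357 in KO-Sal, and 0.506 to 0.797 in WT-Bleo, against 0.21 to 0.418 in WT-Sal. It was thus higher in each WT-Bleo library than in any WT-Sal library, while 1 KO-Bleo library lay just below the highest KO-Sal library.

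Cyp2f2 (gene ID 13107, chromosome 7, 27119955 to 27133660) encodes the club cell cytochrome P450 that in the mouse activates naphthalene. Cyp2f2 was at 837, 719.9, 702 and 681 RPKM in the KO-Bleo libraries, against 1397, 1592, 1433 and 1114 RPKM in the KO-Sal libraries. Wildtype lungs had 817.5, 615, 660.3 and 564 RPKM in the WT-Bleo libraries, against 1023, 1066, 928 and 1101 RPKM in the WT-Sal libraries. Each bleomycin library lay below each saline library of its genotype. Cyp2f2 fell to a mean of 735 ± 70.1 RPKM in KO-Bleo, against 1384 ± 199 RPKM in KO-Sal (SD, n = 4 each; log2 fold change -0.91, SE 0.11, adjusted p = 4.38e-04). It fell to 664 ± 109.6 RPKM in WT-Bleo, against 1029 ± 75.02 RPKM in WT-Sal (SD, n = 4 each; log2 fold change -0.64, SE 0.11, adjusted p = 0.00178). Both calls held in each alternative that was run. The gene with the pattern closest to that of Cyp2f2 was Pon1, which encodes a paraoxonase, with a root mean square difference of 0.0968. Scgb3a2 and Scgb1a1 followed Cyp2f2 at 0.191 and 0.203, the next closest pairs among the 10 genes after Scgb1a1 with Scgb3a2.

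Cyp2f2 belongs to a wider set of enzymes that club cells use to oxidise, conjugate and reduce inhaled compounds. Of 25 such enzymes besides Cyp2f2, all with values, 17 fell and 2 rose in knockout lungs, where 23.6% of all genes were called. In wildtype lungs 11 fell and 3 rose, where 30.9% of all genes were called. The median log2 fold change of the 25 enzymes was -0.50 in knockout and -0.30 in wildtype lungs. Cyp4b1, a P450 that also activates inhaled compounds, fell to 124 ± 3.81 RPKM in KO-Bleo, against 261 ± 12.04 RPKM in KO-Sal (SD, n = 4 each; log2 fold change -1.06, SE 0.06, adjusted p = 4.60e-06). In wildtype lungs it fell to 102 ± 11.3 RPKM in WT-Bleo, against 246 ± 19.5 RPKM in WT-Sal (SD, n = 4 each; log2 fold change -1.27, SE 0.09, adjusted p = 8.35e-06). Fmo1, a flavin monooxygenase, fell by 1.10 on the log2 scale in knockout lungs (adjusted p = 1.57e-04) and by 1.33 in wildtype lungs (adjusted p = 5.75e-06). Gstm1, a glutathione transferase, fell by 0.83 in knockout (adjusted p = 1.72e-04) and by 0.83 in wildtype lungs (adjusted p = 1.00e-04), and Aox3, an aldehyde oxidase, fell by 1.04 in knockout lungs (adjusted p = 6.88e-06). Ephx1, the microsomal epoxide hydrolase, went the other way, with log2 fold changes of 0.73 in knockout lungs (adjusted p = 2.87e-04) and 0.88 in wildtype lungs (adjusted p = 3.53e-06). Several of these enzymes are also made by other lung cells.

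**Figure D2:**
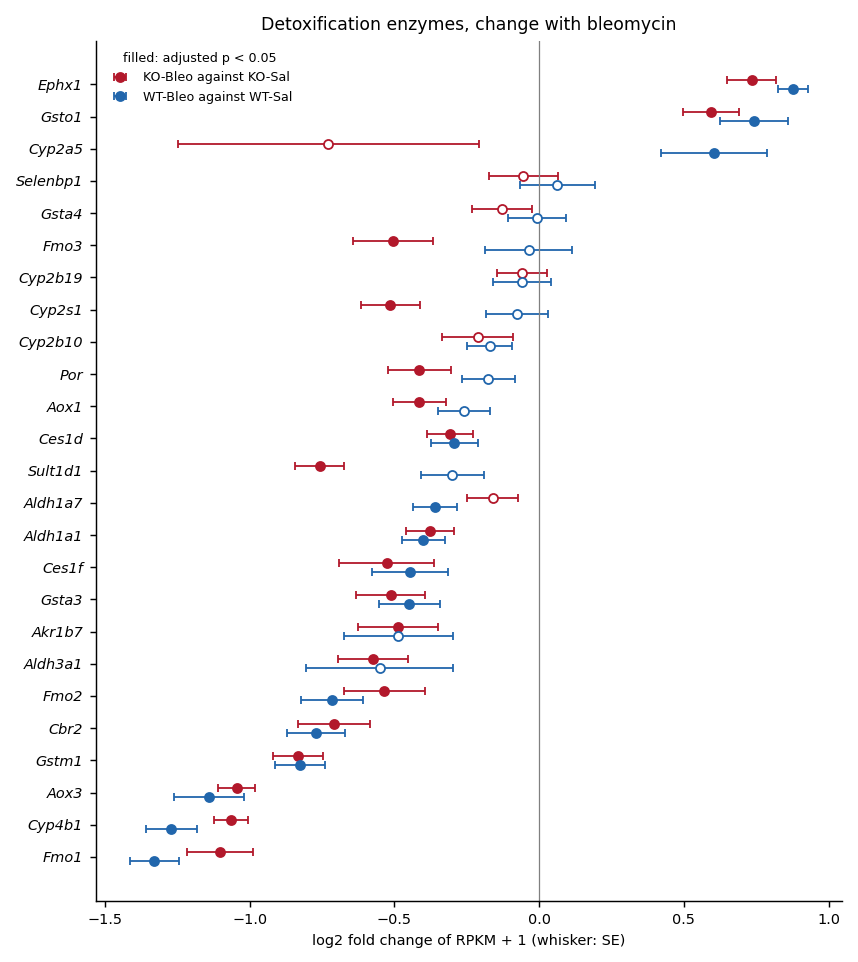
Log2 fold change of RPKM + 1 with bleomycin (horizontal axis) for 25 detoxification enzymes in knockout lungs (red, KO-Bleo against KO-Sal) and wildtype lungs (blue, WT-Bleo against WT-Sal), with the SE as a whisker and filled points for adjusted p under 0.05. Fmo1, Cyp4b1 and Aox3 lie farthest to the left in both genotypes, and Ephx1 and Gsto1 lie to the right in both.

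Muc5b (gene ID 74180, chromosome 7, 141839059 to 141873089) encodes the gel-forming mucin that mice need for mucociliary clearance, and it had the lowest RPKM of the 10 genes in each group. Muc5b was at 8.13, 8.09, 5.95 and 11.6 RPKM in the KO-Bleo libraries, against 6.21, 8.15, 3.95 and 6.90 RPKM in the KO-Sal libraries. The wildtype levels were 10.7, 6.64, 6.29 and 8.50 RPKM in the WT-Bleo libraries, against 4.66, 5.76, 4.40 and 7.38 RPKM in the WT-Sal libraries. The bleomycin and saline ranges overlapped in both genotypes, and the shallow libraries WT-Bleo 6 and KO-Bleo 15 held 60 and 110 reads of the gene. Neither difference was called (log2 fold change 0.38, SE 0.21, adjusted p = 0.223 in knockout lungs; log2 fold change 0.46, SE 0.18, adjusted p = 0.0811 in wildtype lungs). In wildtype lungs the difference was called without WT-Bleo 6, without WT-Sal 4 and with at least 10 reads required in every library, at adjusted p between 0.0400 and 0.0412. The pattern closest to that of Muc5b was that of Muc4, a mucin anchored in the cell membrane, at a root mean square difference of 0.190.

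Of 24 other listed mucin and goblet cell genes 19 had values. Of these, 11 rose and 0 fell in knockout lungs (23.6% of all genes were called there). In wildtype lungs 9 rose and 0 fell (30.9% of all genes). The median log2 fold changes of the 19 genes were 0.38 in knockout and 0.24 in wildtype lungs, beside 0.38 and 0.46 for Muc5b. Muc5ac, the gel-forming mucin of goblet cells, was at 2.92 ± 0.727 RPKM in KO-Bleo, against 0.292 ± 0.0763 RPKM in KO-Sal (SD, n = 4 each; log2 fold change 1.58, SE 0.13, adjusted p = 5.62e-05). In wildtype lungs it was at 1.27 ± 0.143 RPKM in WT-Bleo, against 0.323 ± 0.118 RPKM in WT-Sal (SD, n = 4 each; log2 fold change 0.78, SE 0.10, adjusted p = 2.95e-04). Its level in KO-Bleo did not pass the test against WT-Bleo (log2 fold change 0.77, SE 0.15, adjusted p = 0.0856), nor did the interaction (adjusted p = 0.0645). Agr2, a protein of the endoplasmic reticulum that mucin folding needs, rose by 1.93 in knockout (adjusted p = 8.75e-05) and 2.38 in wildtype lungs (adjusted p = 2.43e-04). Gp2, a protein that binds bacteria, rose by 2.17 in knockout (adjusted p = 1.56e-04) and 2.55 in wildtype lungs (adjusted p = 2.24e-05). Clca1, which goblet cells secrete, was at 124 ± 50.8 RPKM in KO-Bleo, against 34.05 ± 17.1 RPKM in WT-Bleo (SD, n = 4 each; log2 fold change 1.88, SE 0.40, adjusted p = 0.103), which was not called.

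Bpifa1 (gene ID 18843, chromosome 2, 154142880 to 154149217) and Bpifb1 (gene ID 228801, chromosome 2, 154190818 to 154220343) encode BPI-fold proteins of airway fluid and lie 41.6 kb apart. Bpifa1 was at 191, 164, 111 and 130.2 RPKM in the KO-Bleo libraries, against 335, 339, 256 and 327 RPKM in the KO-Sal libraries. The gene in wildtype lungs was at 627.5, 299.8, 287 and 381 RPKM in the WT-Bleo libraries, against 106, 271, 297 and 422 RPKM in the WT-Sal libraries. In knockout lungs each bleomycin library was lower than each saline library, while in wildtype lungs the groups overlapped and WT-Bleo 5 stood well above the other libraries. Bpifa1 fell to a mean of 149 ± 35.6 RPKM in KO-Bleo, against 314 ± 39.1 RPKM in KO-Sal (SD, n = 4 each; log2 fold change -1.09, SE 0.16, adjusted p = 0.00109). In wildtype lungs the mean was 399 ± 158 RPKM in WT-Bleo and 274 ± 129.9 RPKM in WT-Sal (SD, n = 4 each; log2 fold change 0.62, SE 0.39, adjusted p = 0.269). WT-Sal 1, at 106 RPKM and 915 reads, was the lowest of all 16 libraries for Bpifa1, and without it the log2 fold change in wildtype lungs was 0.23 (adjusted p = 0.603).

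Its neighbour Bpifb1 moved the other way in knockout lungs. Bpifb1 was at 125, 102, 77.6 and 90.1 RPKM in the KO-Bleo libraries, against 74.6, 60.8, 54.7 and 68.7 RPKM in the KO-Sal libraries. Its wildtype values were 124, 103, 94.2 and 96.5 RPKM in the WT-Bleo libraries, against 35.01, 47.9, 60.4 and 64.99 RPKM in the WT-Sal libraries. In both genotypes each bleomycin library lay above each saline library, where 28.1% of all genes in knockout and 34.1% in wildtype lungs had no overlap in either direction. Bpifb1 rose to a mean of 98.7 ± 20.04 RPKM in KO-Bleo, against 64.7 ± 8.74 RPKM in KO-Sal (SD, n = 4 each; log2 fold change 0.59, SE 0.14, adjusted p = 0.0140). It rose to 105 ± 13.6 RPKM in WT-Bleo, against 52.1 ± 13.5 RPKM in WT-Sal (SD, n = 4 each; log2 fold change 1.02, SE 0.18, adjusted p = 0.00190). Bpifb1 was thus called in both genotypes, and the interaction for it was not (log2 difference -0.43, adjusted p = 0.514).

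The ratio of Bpifa1 to Bpifb1 RPKM within a library set the KO-Bleo group apart. It was 1.43 to 1.599 in KO-Bleo, against 4.49 to 5.58 in KO-Sal, and 2.90 to 5.06 in WT-Bleo, against 3.04 to 6.50 in WT-Sal. The 4 KO-Bleo values did not overlap those of any other group, and the WT-Bleo range lay across that of WT-Sal. This ratio was chosen after its values had been seen and is given without a test. In the wider families, 7 of 20 listed BPI-fold, secretoglobin and WAP genes had values. Of these, 3 rose and 2 fell in knockout lungs (23.6% of all genes were called there). In wildtype lungs 2 rose and 2 fell (30.9% of all genes). Bpifb5, another BPI-fold gene, fell by 0.81 in knockout lungs (adjusted p = 3.85e-04) and by 1.13 in wildtype lungs (adjusted p = 0.00414). Slpi, a secreted protease inhibitor, rose by 0.56 in knockout (adjusted p = 0.0310) and 0.56 in wildtype lungs (adjusted p = 0.00529).

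**Figure D3:**
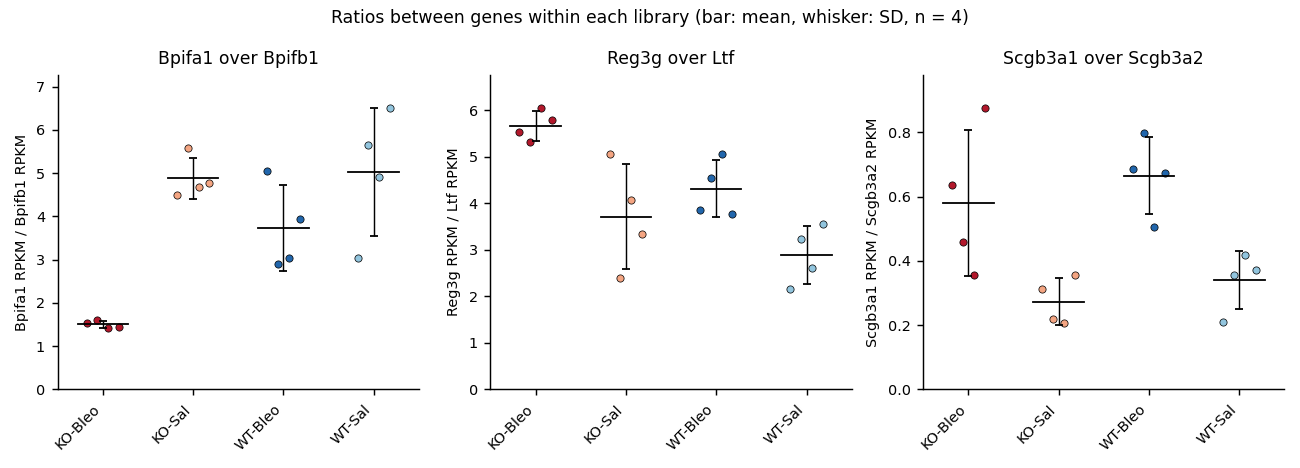
Ratio of RPKM between gene pairs within each library for Bpifa1 over Bpifb1, Reg3g over Ltf and Scgb3a1 over Scgb3a2 (linear axes from 0), with the group mean as a bar and the SD as a whisker. The Bpifa1 to Bpifb1 ratio is 1.43 to 1.599 in KO-Bleo and 2.90 or higher in each library of the other groups.

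Pigr (gene ID 18703, chromosome 1, 130826684 to 130852249) encodes the polymeric immunoglobulin receptor, which takes up IgA at the base of epithelial cells and releases it at their surface. Pigr was at 55.6, 44.2, 49.9 and 67.5 RPKM in the KO-Bleo libraries, against 39.1, 37.7, 27.6 and 30.8 RPKM in the KO-Sal libraries. Wildtype lungs had 31.9, 26.7, 28.7 and 26.01 RPKM in the WT-Bleo libraries, against 21.1, 25.5, 23.6 and 23.6 RPKM in the WT-Sal libraries. The means ran in the order KO-Bleo (54.3 ± 9.94 RPKM), KO-Sal (33.8 ± 5.53 RPKM), WT-Bleo (28.3 ± 2.66 RPKM) and WT-Sal (23.4 ± 1.81 RPKM; SD, n = 4 each). Each KO-Bleo library was above each KO-Sal library, and each WT-Bleo library above each WT-Sal library, while the KO-Sal and WT-Bleo ranges overlapped. Pigr rose with bleomycin in knockout lungs (log2 fold change 0.66, SE 0.14, adjusted p = 0.00770), a call kept in each alternative that was run.

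In wildtype lungs the rise of Pigr was small (log2 fold change 0.26, SE 0.08, adjusted p = 0.0335, 1.20-fold). Its log2 fold change lay between 0.205 and 0.302 when each library was left out in turn. The call was lost without WT-Sal 1, 3 or 4 or WT-Bleo 5 or 7 (adjusted p between 0.0666 and 0.0896). In those fits 3878 to 4318 of all genes were called, against 5066 with all libraries. The call of Pigr was also lost with a spread shared by all groups (0.113) and under both other scalings (0.0627 and 0.112). The interaction was not called (log2 difference 0.40, adjusted p = 0.421, unadjusted p = 0.0338).

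Between the genotypes, Pigr was the 1 gene of the 10 called in KO-Bleo against WT-Bleo, where 0.214% of all genes were called, 0.122% higher and 0.0916% lower. The log2 fold change was 0.90 (SE 0.12, adjusted p = 0.0250, 1.87-fold), and each KO-Bleo library was above each WT-Bleo library. The log2 fold change lay between 0.79 and 0.99 over all alternatives, but the call was lost without WT-Bleo 5, 7 or 8 or KO-Bleo 13, 14 or 15 (adjusted p between 0.0596 and 0.110). Few genes of any kind were called in those fits, against 35 of all genes with all libraries. Without WT-Bleo 5, WT-Bleo 7, KO-Bleo 13 or KO-Bleo 14 the count over all genes was 0. It was 4 without WT-Bleo 8 and 8 without KO-Bleo 15. Under saline Pigr was also higher in each KO-Sal library than in each WT-Sal library, at a log2 fold change of 0.50 (SE 0.11, adjusted p = 0.0765). This was not called with all libraries, where 8 of 16380 genes were. It was called without KO-Sal 12 (adjusted p = 0.0310), where 722 genes were. KO-Bleo 13 and 16 had the 2 highest Pigr values of all 16 libraries.

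Markers of alveolar type 2 cells, which make surfactant, differed between the genotypes in the same direction as Pigr under bleomycin. The summed RPKM of 12 such markers was 23050 to 25440 in KO-Bleo, against 16210 to 18580 in WT-Bleo, without overlap, and 23010 to 27500 in KO-Sal, against 25390 to 29260 in WT-Sal, with overlap. Of the 12 markers 7 were called higher and 0 lower in KO-Bleo against WT-Bleo (0.214% of all genes were called there). In KO-Sal against WT-Sal 0 were called (0.0488% of all genes), and 5 were called for the interaction (0.22%). With bleomycin 2 rose and 3 fell in knockout lungs (23.6% of all genes were called there). In wildtype lungs 0 rose and 10 fell (30.9% of all genes). Sftpc, surfactant protein C, gave the most RPKM of this list and had a log2 fold change of 0.49 in KO-Bleo against WT-Bleo (SE 0.06, adjusted p = 0.0184). The part of these cells in the Pigr values was not tested.

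Of 12 other listed genes of IgA transport and production 9 had values. Of these, 1 rose and 0 fell in knockout lungs (23.6% of all genes were called there). In wildtype lungs 2 rose and 1 fell (30.9% of all genes). Between the genotypes 0 of the 9 were called under bleomycin (0.214% of all genes) or saline (0.0488% of all genes). Ltbr, a receptor that lymphoid tissue needs, rose by 0.45 in knockout (adjusted p = 0.00373) and 0.45 in wildtype lungs (adjusted p = 1.64e-04). Jchain, the chain that joins IgA into the polymers that Pigr binds, was at 19.1 ± 11.2 RPKM in KO-Bleo, against 12.2 ± 7.15 RPKM in WT-Bleo (SD, n = 4 each; log2 fold change 0.57, SE 0.41, adjusted p = 0.606). Under saline it was at 66.95 ± 40.97 RPKM in KO-Sal, against 6.86 ± 5.84 RPKM in WT-Sal (SD, n = 4 each; log2 fold change 2.83, SE 0.92, adjusted p = 0.188). The summed RPKM of 9 plasma cell markers was 257 to 306 in KO-Bleo, against 282 to 312 in WT-Bleo. In saline lungs it was 223 to 349 in KO-Sal, against 225 to 258 in WT-Sal. Xbp1, Sdc1 and Txndc5, which other secretory and epithelial cells also make, led this sum, and its part in the Pigr values was not tested. The gene with the pattern closest to Pigr was C3, complement component C3, at a root mean square difference of 0.257.

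Ltf (gene ID 17002, chromosome 9, 111019292 to 111042766) encodes lactoferrin, an iron-binding protein that starves bacteria of iron, made by airway glands and by maturing neutrophils. Ltf was at 69.1, 34.1, 31.01 and 63.6 RPKM in the KO-Bleo libraries, against 13.01, 16.6, 8.63 and 17.8 RPKM in the KO-Sal libraries. The wildtype levels were 84.3, 65.8, 56.02 and 83.3 RPKM in the WT-Bleo libraries, against 10.1, 14.4, 19.4 and 21.6 RPKM in the WT-Sal libraries. In both genotypes each bleomycin library was above each saline library. Ltf rose to a mean of 49.5 ± 19.7 RPKM in KO-Bleo, against 14.03 ± 4.15 RPKM in KO-Sal (SD, n = 4 each; log2 fold change 1.71, SE 0.30, adjusted p = 0.00416). It rose to 72.3 ± 13.8 RPKM in WT-Bleo, against 16.4 ± 5.15 RPKM in WT-Sal (SD, n = 4 each; log2 fold change 2.11, SE 0.22, adjusted p = 8.78e-05). KO-Bleo 14 and 15 lay between the KO-Sal libraries and KO-Bleo 13 and 16, and the KO-Bleo and WT-Bleo ranges overlapped (log2 fold change -0.61, SE 0.26, adjusted p = 0.438).

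Since neutrophils also make Ltf, their marker genes were read beside it. The summed RPKM of 11 neutrophil markers, of 14 listed, was 129 to 266 in KO-Bleo, against 89.8 to 189.8 in KO-Sal. In wildtype lungs it was 92.4 to 209.7 in WT-Bleo, against 147 to 737 in WT-Sal, where WT-Sal 3 gave the highest value. The ranges of this sum overlapped between bleomycin and saline in both genotypes. The granule gene Ngp, made at the same stage of neutrophil maturation as Ltf, had log2 fold changes of 0.83 in knockout lungs (adjusted p = 0.263) and -0.74 in wildtype lungs (adjusted p = 0.313), neither called. The most abundant neutrophil markers, S100a8 and S100a9, were not called in wildtype lungs (log2 fold change -0.79 for S100a8, with adjusted p = 0.282, and -1.04 for S100a9, with adjusted p = 0.165), and Mmp8 was called higher there (log2 fold change 0.80, SE 0.25, adjusted p = 0.0344). In knockout lungs, where 23.6% of all genes were called, 2 of the 11 markers were called, both higher. They were Mmp8 (log2 fold change 0.74, SE 0.12, adjusted p = 0.00228) and Il1r2 (log2 fold change 0.58, SE 0.13, adjusted p = 0.0116). The part of neutrophils in the Ltf values was not tested. Of 10 airway gland genes 3 had values, and their sum was 22.4 to 44.2 RPKM in KO-Bleo, against 14.8 to 19.8 RPKM in KO-Sal. In wildtype lungs the sum was 18.8 to 26.6 RPKM in WT-Bleo, against 11.1 to 17.3 RPKM in WT-Sal. Tff2 led it, at a mean of 17.2 RPKM over all libraries, beside 3.98 for Azgp1 and 0.417 for Dmbt1. Of these 3 genes 2 were called higher and 1 lower in knockout lungs (23.6% of all genes were called there). In wildtype lungs 2 were called higher and 0 lower (30.9% of all genes). Azgp1 was at 3.46 ± 0.185 RPKM in KO-Bleo, against 6.255 ± 2.245 RPKM in KO-Sal (SD, n = 4 each). The part of this sum in the Ltf rise was not tested.

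Reg3g (gene ID 19695, chromosome 6, 78466269 to 78468874) encodes a secreted lectin that binds the cell wall of Gram-positive bacteria, and it had the largest log2 fold change of the 10 genes in both genotypes. Reg3g was at 382, 181, 187.5 and 368 RPKM in the KO-Bleo libraries, against 65.97, 39.8, 35.2 and 59.6 RPKM in the KO-Sal libraries. The gene in wildtype lungs was at 325, 299.7, 284 and 314 RPKM in the WT-Bleo libraries, against 21.9, 46.7, 50.8 and 76.7 RPKM in the WT-Sal libraries. The bleomycin and saline libraries were far apart in both genotypes, and in KO-Bleo replicates 13 and 16 stood above all other libraries while 14 and 15 stood below all WT-Bleo libraries. Reg3g rose to a mean of 279.7 ± 110.4 RPKM in KO-Bleo, against 50.1 ± 14.9 RPKM in KO-Sal (SD, n = 4 each; log2 fold change 2.42, SE 0.30, adjusted p = 7.15e-04, 5.34-fold). It rose to 306 ± 17.8 RPKM in WT-Bleo, against 49.03 ± 22.4 RPKM in WT-Sal (SD, n = 4 each; log2 fold change 2.74, SE 0.29, adjusted p = 1.16e-04, 6.69-fold). The SD was 110 RPKM in KO-Bleo and 17.8 RPKM in WT-Bleo, and the groups overlapped (log2 fold change -0.21, SE 0.24, adjusted p = 0.736).

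Reg3g and Ltf shared the order of the KO-Bleo libraries in part, with 13 and 16 above 14 and 15 for both, as for Scgb3a1 and Pigr. Their ratio was 5.32 to 6.05 in KO-Bleo, against 2.39 to 5.07 in KO-Sal, and 3.78 to 5.07 in WT-Bleo, against 2.17 to 3.55 in WT-Sal. Each bleomycin library thus held more Reg3g per Ltf than each saline library of its genotype, by values chosen after they had been seen. The closest patterns lay outside the pair, with Gp2 closest to Reg3g (root mean square difference 0.392) and Itm2a closest to Ltf (0.333), beside 0.457 between Reg3g and Ltf. Of 25 other epithelial antimicrobial genes 16 had values. Of these, 5 rose and 1 fell in knockout lungs (23.6% of all genes were called there). In wildtype lungs 2 rose and 3 fell (30.9% of all genes). Lcn2, lipocalin 2, which captures bacterial siderophores, rose to 673 ± 167.5 RPKM in KO-Bleo, against 119.7 ± 20.2 RPKM in KO-Sal (SD, n = 4 each; log2 fold change 2.47, SE 0.18, adjusted p = 2.56e-05). In wildtype lungs Lcn2 rose to 531 ± 58.96 RPKM in WT-Bleo, against 119 ± 14.7 RPKM in WT-Sal (SD, n = 4 each; log2 fold change 2.15, SE 0.10, adjusted p = 1.04e-06). Chil1, a chitinase-like protein, was the antimicrobial list's highest call between the genotypes, at 645 ± 59.8 RPKM in KO-Bleo, against 354.5 ± 24.5 RPKM in WT-Bleo (SD, n = 4 each; log2 fold change 0.86, SE 0.08, adjusted p = 0.0184).

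Promoters of the 4 genes that rose and of Bpifa1, which fell in knockout lungs, are shown because these genes part ways with bleomycin. Airway epithelium makes the products of all 5, and neutrophils also make that of Ltf. RefSeq (GRCm38.p6) gave a promoter of 300 bases, 250 before and 50 after the start, for 7 of the 10 genes. Each was searched on both strands for TTCNNNGAA (STAT), TGTTTAC (FOXA), an IRF motif, GGGANTTCC (NF-kB), CTCAAG (NKX2-1) and TTNNGCAA (C/EBP), and matches are in capitals. The sequences are printed 5′ to 3′ on the strand of the gene: Reg3g chr6:78468825-78469124 (minus), Ltf chr9:111019042-111019341 (plus), Pigr chr1:130826434-130826733 (plus), the second of 2 Bpifb1 entries chr2:154200130-154200429 (plus) and Bpifa1 chr2:154142630-154142929 (plus).
Reg3g: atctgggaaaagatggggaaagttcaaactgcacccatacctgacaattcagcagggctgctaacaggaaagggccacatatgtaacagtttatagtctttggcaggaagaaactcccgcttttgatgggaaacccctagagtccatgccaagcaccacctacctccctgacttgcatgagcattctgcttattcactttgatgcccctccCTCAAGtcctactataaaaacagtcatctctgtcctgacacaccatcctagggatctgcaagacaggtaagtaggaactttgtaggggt
Ltf: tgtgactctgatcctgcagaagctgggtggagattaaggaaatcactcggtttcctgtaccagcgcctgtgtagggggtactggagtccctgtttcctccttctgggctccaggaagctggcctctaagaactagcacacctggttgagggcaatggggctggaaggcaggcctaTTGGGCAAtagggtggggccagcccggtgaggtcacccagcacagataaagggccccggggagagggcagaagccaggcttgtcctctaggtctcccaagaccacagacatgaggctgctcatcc
Pigr: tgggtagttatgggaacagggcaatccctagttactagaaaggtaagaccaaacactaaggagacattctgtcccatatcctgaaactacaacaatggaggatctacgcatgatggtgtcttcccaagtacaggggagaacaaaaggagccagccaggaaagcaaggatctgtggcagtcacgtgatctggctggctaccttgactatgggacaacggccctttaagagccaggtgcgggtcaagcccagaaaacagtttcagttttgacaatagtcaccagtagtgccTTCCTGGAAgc
Bpifb1: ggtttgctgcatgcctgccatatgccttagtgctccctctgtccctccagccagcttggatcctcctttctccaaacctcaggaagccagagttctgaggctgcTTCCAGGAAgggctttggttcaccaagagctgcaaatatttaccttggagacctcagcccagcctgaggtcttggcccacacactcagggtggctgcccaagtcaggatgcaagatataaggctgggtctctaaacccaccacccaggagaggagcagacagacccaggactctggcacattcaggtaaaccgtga
Bpifa1: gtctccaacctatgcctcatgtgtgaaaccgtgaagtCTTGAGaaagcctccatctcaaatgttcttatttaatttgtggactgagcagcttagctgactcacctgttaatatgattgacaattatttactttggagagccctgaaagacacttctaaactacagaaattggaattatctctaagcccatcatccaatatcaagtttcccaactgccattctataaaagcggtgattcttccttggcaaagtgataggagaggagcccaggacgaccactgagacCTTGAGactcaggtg

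Pigr held 1 STAT match at bases 40 to 48 after the start, and the Bpifb1 promoter shown held 1 from -146 to -138. Ltf held a C/EBP match from -75 to -68, and Reg3g an NKX2-1 match from -39 to -34. Bpifa1 held 2 NKX2-1 matches on the opposite strand, from -213 to -208 and at 36 to 41. Scgb3a1 held a STAT match from -194 to -186 and an NKX2-1 match from -172 to -167, while the Cyp2f2 promoter and the first Bpifb1 entry held none of the 6 motifs. Of 32851 promoters of the same length, 8.3% hold a STAT match, 15.9% an NKX2-1 match and 10.8% a C/EBP match, so single matches are common. FOXA, IRF and NF-kB matches, found in 3.65%, 3.44% and 1.68% of promoters, were in none of the promoters of these genes. No single motif was shared by the 4 genes that rose.

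Transcription factors of the airway epithelium were read as a further list, of which all 20 had values. In knockout lungs 7 fell and 1 rose (23.6% of all genes were called there), and in wildtype lungs 5 fell and 3 rose (30.9% of all genes). Foxa1, a forkhead factor of airway epithelium, fell by 0.60 in knockout lungs (adjusted p = 0.00145) and by 0.41 in wildtype lungs (adjusted p = 0.00282). Stat3, which acts below IL-6 family receptors, rose by 0.24 in both genotypes (adjusted p = 0.00896 in knockout and 0.00938 in wildtype lungs). Elf3, an epithelial ETS factor, rose by 0.41 in wildtype lungs (adjusted p = 0.00374).

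**Figure D4:**
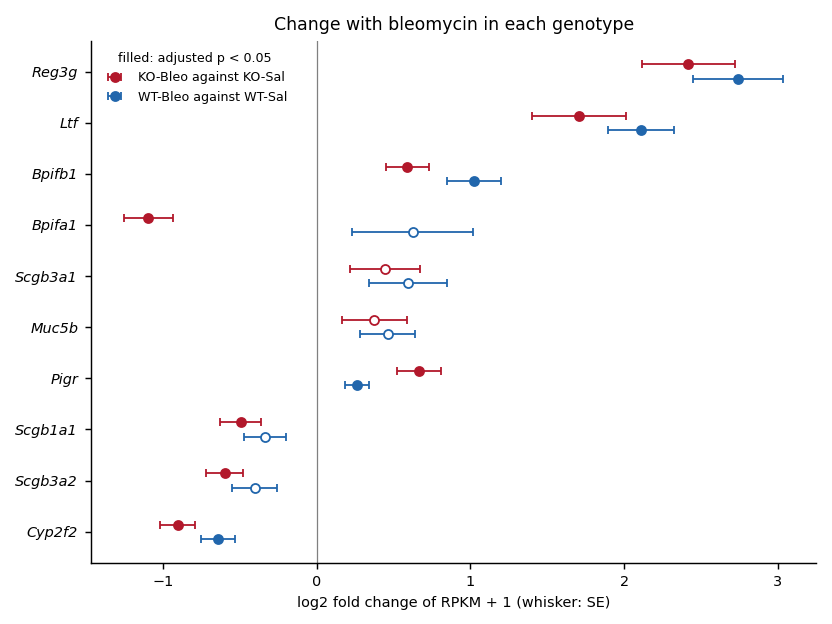
Log2 fold change of RPKM + 1 with bleomycin (horizontal axis) for the 10 genes in knockout lungs (red, KO-Bleo against KO-Sal) and wildtype lungs (blue, WT-Bleo against WT-Sal), with the SE as a whisker and filled points for adjusted p under 0.05. The 2 points of Bpifa1 lie on opposite sides of 0, at -1.09 in knockout and 0.62 in wildtype lungs, and those of each other gene lie on the same side.

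The difference in the bleomycin response between the genotypes was tested for each gene as an interaction over all 16 libraries. By limma 0 of the 10 genes were called, where 0.22% of all genes were called, and 2 of them had an unadjusted p under 0.05. They were Bpifa1 (log2 difference -1.72, SE 0.48, unadjusted p = 0.00299, adjusted p = 0.231) and Pigr, whose values stand with it, and limma-voom on whole reads also called 0. For Bpifa1 the interaction lay between -1.98 and -1.32 over the alternatives that were run, and its adjusted p stayed above 0.05 in each of them. A log2 change that was called in 1 genotype only, as for Bpifa1, Scgb1a1 and Scgb3a2, was therefore not shown to differ between the genotypes.

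Under bleomycin Bpifa1 was lower in each KO-Bleo library than in each WT-Bleo library, at a log2 fold change of -1.37 (SE 0.25, adjusted p = 0.0728), which was not called. With at least 10 reads required in every library Bpifa1 was called (SE 0.23, adjusted p = 0.0156), in a fit that called 149 of 9038 genes. Bpifa1 and Pigr were the genes of the 10 without overlap between KO-Bleo and WT-Bleo, where 8.48% of all genes had none. The cut-offs of the study were a 1.5-fold difference and p under 0.05 without adjustment. When they were applied to the limma fits used here, Pigr, Bpifa1 and Ltf passed in this comparison, as did 1.26% of all genes. Bpifa1 passed for the interaction, as did 2.06% of all genes. For the other 8 genes the groups overlapped, and adjusted p lay between 0.438 for Ltf and 0.927 for Muc5b. Under saline 0 of the 10 genes were called in KO-Sal against WT-Sal by limma, where 0.0488% of all genes were called. Limma-voom also called 0 of the 10, and 117 of 16377 genes in all. In the limma fit 2 of the 10 genes had an unadjusted p under 0.05. They were Pigr and Cyp2f2 (log2 fold change 0.42, SE 0.11, adjusted p = 0.102), and both were higher in each KO-Sal library than in each WT-Sal library, where 9.66% of all genes showed no overlap. Without KO-Sal 12 Cyp2f2 was called (adjusted p = 0.0135), in a fit that called 722 of 16380 genes, against 8 with all libraries.

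**Figure D5:**
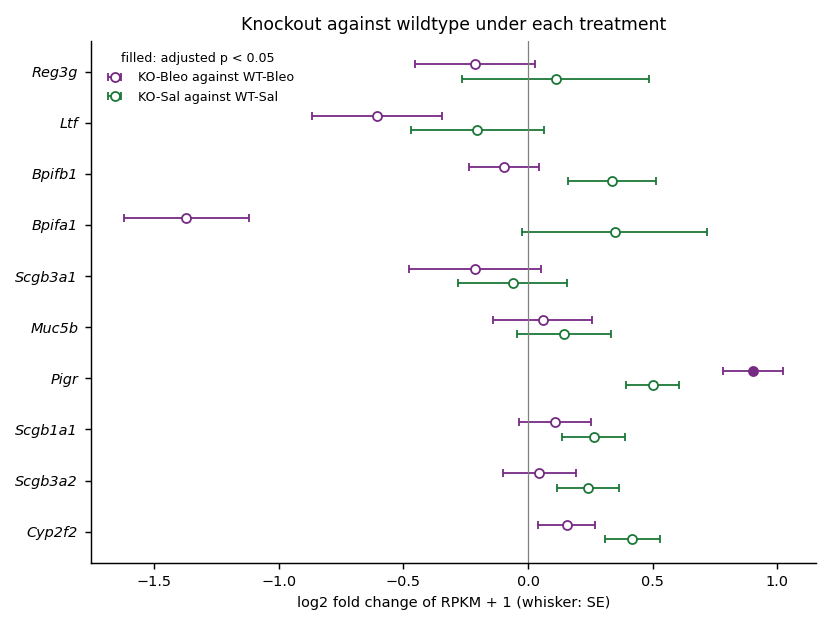
Log2 fold change of RPKM + 1 between the genotypes (horizontal axis) for the 10 genes under bleomycin (purple, KO-Bleo against WT-Bleo) and saline (green, KO-Sal against WT-Sal), with the SE as a whisker and filled points for adjusted p under 0.05. Pigr under bleomycin, at 0.90, is the only filled point, and Bpifa1 under bleomycin lies farthest to the left at -1.37.

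Markers of other cell types were summed in the same way. The sum of 12 ciliated cell markers was 494 to 562 RPKM in KO-Bleo, against 586 to 721 RPKM in KO-Sal, and 438 to 528 RPKM in WT-Bleo, against 525 to 598 RPKM in WT-Sal. Tppp3 and Rsph1 were called lower in knockout lungs (23.6% of all genes were called there). In wildtype lungs Tppp3 was called lower and Tubb4b higher (30.9% of all genes). Under saline 0 of the 12 markers were called in KO-Sal against WT-Sal (0.0488% of all genes). The median log2 fold change of the 12 markers there was 0.42, beside 0.03 for all genes. Without Tppp3, whose log2 fold change was -0.97 in knockout and -1.17 in wildtype lungs, the sum was 355 to 412 RPKM in KO-Bleo, against 328 to 441 RPKM in KO-Sal, and 336 to 402 RPKM in WT-Bleo, against 300.3 to 333 RPKM in WT-Sal. The sum without Tppp3 thus overlapped in knockout lungs and was higher in each WT-Bleo library than in any WT-Sal library. The sum of 8 basal cell markers was 2.14 to 9.62 RPKM in KO-Bleo, against 1.90 to 3.22 RPKM in KO-Sal, and 7.85 to 15.8 RPKM in WT-Bleo, against 1.64 to 2.97 RPKM in WT-Sal. The sum of 7 airway cartilage genes, of 15 listed, was 12.5 to 14.6 RPKM in KO-Bleo, against 15.4 to 16.5 RPKM in KO-Sal, and 10.9 to 12.4 RPKM in WT-Bleo, against 12.1 to 16.8 RPKM in WT-Sal, with Chad giving most of it. How much conducting airway each lung piece held, and the part of these shifts in the values of the 10 genes, was not tested.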

How the data were processed

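Lung RNA was sequenced in 16 libraries, 4 per group, and groups were taken from the labels. As upstream software the submitters' notes list TopHat, DESeq, bcl2fastq and CASAVA 1.8, and as genome mm10. The authors deposited 1 table with a value for each gene and library. These values were taken as RPKM (reads corrected for gene length and library depth), since no source names the unit. For 16377 of 16380 genes (99.98%) the values gave whole reads in each library (relative tolerance 6e-08), and these reads were used for depth, for a filter and for limma-voom. All 16 columns of values were used.

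The main test was limma 3.58.1 in R 4.3.3 (trend and robust options) on log2 of the deposited RPKM + 1, with only the libraries of the groups compared and Benjamini-Hochberg adjustment over all 16380 genes. The interaction used all 4 groups. The added 1 shrinks the fold changes of low genes. The fits were tested on simulated data. Gene positions, names and promoters came from RefSeq tables of GRCm38.p6, in which 16363 gene IDs were found, and figures were drawn with matplotlib 3.10.9 in Python 3.11.15. Alternatives were pseudocounts of 0.1 and 5, filters on a mean of at least 1 and on at least 10 reads in every library, limma-voom, a shared spread, median-of-ratios scaling, rescaling without the 10 most abundant genes, leaving out both shallow libraries (WT-Bleo 6 and KO-Bleo 15), leaving out each library in turn, an adjusted p under 0.1, and an unadjusted p under 0.05 with at least 1.5-fold, the thresholds of the study. Haemoglobin genes were to be left out with the 10 most abundant ones, and no listed gene carried their symbols.

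All 10 genes are named, with up to 4 genes per pathway list and comparison by smallest p, up to 3 per marker list by level, the gene of most similar pattern for each of the 10, and Il31ra. The ratios of gene pairs, the share of reads of Scgb1a1, the ciliated cell sum without Tppp3, and Elf3, Mmp8, Il1r2, Rsph1, Ngp and Ephx1 in knockout lungs, were added after their values had been seen. The genes and lists were chosen with earlier results of these data known.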

Additional observations from a re-analysis of the deposited data

Results flagged for a closer look

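Of 40 sets of 4 libraries (10 genes in 4 groups), 1 held a library far from the others by Dixon's test at the 95% level, and chance flags about 1 in 20 such sets. Bpifa1 in KO-Sal 11 was at 256 RPKM, against 327 to 339 RPKM in the other 3 KO-Sal libraries, with a gap of 0.857 of the range of the group. KO-Sal 11 still lay above each KO-Bleo library, and the log2 fold change of Bpifa1 in KO-Bleo against KO-Sal stayed between -1.22 and -0.96 when each library was left out in turn.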

How the results depend on the processing

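Of the 14 calls of the 10 genes, 11 were kept in each alternative, and those of Pigr in WT-Bleo against WT-Sal and in KO-Bleo against WT-Bleo and of Scgb1a1 in KO-Bleo against KO-Sal were lost in some, the cause of which was not tested. At an adjusted p under 0.1 the count of called genes among the 10 was 8 in WT-Bleo against WT-Sal (5 higher and 3 lower). It was 2 in KO-Bleo against WT-Bleo and 1 in KO-Sal against WT-Sal. No share of all genes was taken at that threshold, and at 0.05 it was 30.9% in WT-Bleo against WT-Sal. In KO-Bleo against WT-Bleo 2 of the 10 were called with at least 10 reads required in every library, where 149 of 9038 genes were. There were 3 at the thresholds of the study (1.26% of all genes), which gave 1 for the interaction (2.06%). Leaving out each library in turn, the count was 0 to 1 in KO-Bleo against WT-Bleo, where 0 to 47 of all genes were called. It was 0 to 2 in KO-Sal against WT-Sal (3 to 722) and 4 to 6 in WT-Bleo against WT-Sal (3878 to 6442). For KO-Bleo against KO-Sal it was 7 to 8 (2698 to 4073), and for the interaction 0 to 0 (3 to 60).

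Direction changed in 23 fits, 0 of them of a call and each at an adjusted p of 0.766 or more. Without both shallow libraries, KO-Bleo against WT-Bleo gave 0.048 for Scgb3a1 and 0.0084 for Bpifb1 on the log2 scale. For the interaction of Scgb3a1, limma-voom gave 0.070 and the fit without both shallow libraries 0.11. Leaving out each library in turn, KO-Bleo against WT-Bleo ranged from -0.42 to 0.0100 for Scgb3a1, -0.087 to 0.17 for Scgb3a2, -0.092 to 0.20 for Muc5b and -0.21 to 0.011 for Bpifb1. KO-Sal against WT-Sal ranged from -0.051 to 0.61 for Bpifa1, -0.22 to 0.37 for Reg3g and -0.32 to 0.070 for Scgb3a1. The interaction ranged from -0.36 to 0.10 for Scgb3a1, -0.26 to 0.052 for Muc5b and -0.58 to 0.0072 for Reg3g.

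Over all genes, apart from fits without single libraries, counts of calls differed most with limma-voom on whole reads. It called 581 in KO-Bleo against WT-Bleo (35 by limma), 117 in KO-Sal against WT-Sal (8 by limma) and 81 for the interaction (36 by limma). Without KO-Sal 12, limma called 722 in KO-Sal against WT-Sal. In KO-Bleo against WT-Bleo 149 were called under the filter on 10 reads in every library, 269 with a shared spread, 95 without both shallow libraries and 67 with a mean of at least 1. In KO-Sal against WT-Sal 40 were called under the filter on 10 reads, 69 with a shared spread and 19 after rescaling without the 10 most abundant genes. For the interaction 55 were called under the filter on 10 reads. No paired analysis was possible because the groups share no replicate number. The shallow libraries limit Muc5b and Pigr most, with 60 and 62 reads in WT-Bleo 6.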
